A study of Mus musculus with 15 samples.

Results

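The 35 genes described here encode the core machinery of autophagy and part of the lysosome. They were chosen by symbol, as the rows of the deposited expression table whose Ensembl identifiers map to the 35 names in GENCODE M39, and all 35 were found among the 56980 genes listed. By role they are 4 genes of the ULK kinase complex, 6 of the nucleation step, 7 of the conjugation systems, 5 of the ATG8 family, 6 cargo and mitophagy receptors, 2 transcription factors and 5 lysosomal genes. All 35 passed the filter on low values in every comparison.

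RNA was sequenced from 15 DBA/2J-mdx mice, 1 library per mouse. These mice have no dystrophin, the protein lost in Duchenne muscular dystrophy, and their disease is severe on this background. The tibialis anterior (TA), a muscle of the lower leg, came from mice treated from 3 months of age and collected at 5 months, 4 given dasatinib plus quercetin (D + Q) and 4 given vehicle. The heart came from mice treated from 12 months and collected at 16 months, 3 given D + Q and 4 given vehicle. Dasatinib is a kinase inhibitor and quercetin a plant flavonol, and the pair is used as a senolytic, a treatment meant to remove senescent cells. Both were given by mouth 2 times per week, for 2 months in the TA study and 4 months in the heart study. All mice carried the mdx genotype, so no group shows these genes in healthy muscle. Tissue, age and length of treatment changed together and cannot be told apart. All 4 D + Q–treated TA mice were male, while the vehicle TA group and the vehicle heart group each held 2 males and 2 females, and the D + Q heart group was labelled as 1 male and 2 females.

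Autophagy encloses part of the cytoplasm in a membrane and delivers it to the lysosome. The ULK kinase complex starts the process, a lipid kinase complex around Beclin 1 marks the site, and a pair of ubiquitin-like conjugation systems attach ATG8 proteins such as LC3 to the growing membrane, where cargo receptors such as p62 bind them. After fusion, cathepsins digest the contents inside a vesicle lined by LAMP proteins. In skeletal and cardiac muscle this route removes damaged mitochondria and protein aggregates, and TFEB and TFE3 are transcription factors that drive many of its genes. The transcripts measured here give the supply of the machinery and not the rate at which cargo is digested.

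Values are given as TPM, a transcript abundance scaled to the library total and to transcript length, so levels of different genes can be set side by side. The read depth behind a TPM value is unknown, and all precision given here comes from the spread between mice. In bulk tissue, fewer cells of a type and less RNA per cell cannot be told apart. The tissue labels matched the data: 8 skeletal fibre markers summed to 53939 to 66452 TPM in TA and 1332 to 1783 TPM in heart, and 8 cardiomyocyte markers summed to 25843 to 34346 TPM in heart and 77.6 to 196 TPM in TA. In 14 of the 15 mice the sex-linked transcripts fitted the label. The exception was D + Q heart replicate 3, which was labelled male and read as female, so the heart results that moved most are also given without it or with the sex read from expression. Libraries of the same group correlated with r from 0.949 to 0.982 across genes, and none was identical to another.

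Because TFEB and TFE3 bind a palindrome called the CLEAR element in the promoters of lysosomal genes, the promoters of the 35 genes were read from RefSeq (GRCm38.p6, from 250 bases before to 50 bases after the annotated start). An entry was present for 28 of the 35, in 32 windows, since Nbr1, Tfeb and Tfe3 have more than 1. Map1lc3a, Atg12, Ctsb, Bnip3l, Becn1, Atg16l1 and Pik3c3 had no entry. The full 10-base palindrome occurred in 0.326% of all 32851 RefSeq windows and in 0 of the 32. Its shorter core TCACGTG, searched on both strands, occurred in 3.77% of all windows and in those of Atg14, Atg3, Atg7, Ctsd and Lamp1. The E-box CACGTG, which lies inside both longer motifs, occurred in 7.15% of all windows and in 8 of the 32, the same 5 and those of Atg5, Bnip3 and Ctsl. The following 5 promoters are examples and do not represent the 32 windows. Lamp1 and Atg3 were called higher in TA, and Gabarapl1 was the gene most raised in heart over TA. Ctsd and Bnip3 were among the genes with the smallest treatment p-values. Windows not shown include those of Tfeb, Atg101 and Ulk2, which differed most in favour of TA. Like that of Atg13, which had the smallest treatment p-value in heart, they held no CACGTG. Capitals mark CACGTG together with a flanking base that completes the core on either strand.
Lamp1, chr8:13158911-13159210, + strand: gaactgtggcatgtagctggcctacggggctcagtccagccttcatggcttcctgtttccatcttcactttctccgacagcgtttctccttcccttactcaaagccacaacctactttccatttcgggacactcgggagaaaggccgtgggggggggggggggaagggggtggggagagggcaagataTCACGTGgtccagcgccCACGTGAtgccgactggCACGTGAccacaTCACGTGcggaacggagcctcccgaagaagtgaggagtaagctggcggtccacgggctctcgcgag
Atg3, chr16:45158579-45158878, + strand: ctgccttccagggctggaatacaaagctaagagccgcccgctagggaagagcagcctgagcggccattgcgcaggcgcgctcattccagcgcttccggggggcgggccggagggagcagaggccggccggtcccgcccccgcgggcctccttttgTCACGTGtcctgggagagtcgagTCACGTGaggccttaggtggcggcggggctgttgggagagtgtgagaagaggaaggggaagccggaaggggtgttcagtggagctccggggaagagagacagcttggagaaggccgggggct
Ctsd, chr7:142387778-142388077, - strand: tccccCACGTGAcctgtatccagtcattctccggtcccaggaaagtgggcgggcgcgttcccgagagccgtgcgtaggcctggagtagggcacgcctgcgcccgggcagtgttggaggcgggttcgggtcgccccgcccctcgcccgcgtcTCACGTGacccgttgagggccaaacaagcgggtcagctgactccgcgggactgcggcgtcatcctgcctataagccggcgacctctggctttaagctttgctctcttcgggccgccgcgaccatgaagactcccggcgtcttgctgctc
Bnip3, chr7:138909457-138909756, - strand: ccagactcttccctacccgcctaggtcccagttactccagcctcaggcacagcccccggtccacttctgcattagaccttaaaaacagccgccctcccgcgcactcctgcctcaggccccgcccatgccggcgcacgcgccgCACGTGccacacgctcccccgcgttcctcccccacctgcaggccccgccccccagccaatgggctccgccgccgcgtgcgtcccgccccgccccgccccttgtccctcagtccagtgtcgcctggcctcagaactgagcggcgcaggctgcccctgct
Gabarapl1, chr6:129532942-129533241, + strand: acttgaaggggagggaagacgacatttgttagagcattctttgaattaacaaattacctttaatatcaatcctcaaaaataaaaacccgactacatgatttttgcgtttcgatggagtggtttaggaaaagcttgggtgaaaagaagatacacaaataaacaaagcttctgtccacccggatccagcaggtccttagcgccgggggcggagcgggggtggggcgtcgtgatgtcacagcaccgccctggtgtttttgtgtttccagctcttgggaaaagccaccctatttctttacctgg

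The Lamp1 window held 4 copies of the core, starting 62, 45, 28 and 16 bases before the annotated start. The Atg3 window held 2 copies, 95 and 72 bases before the start, and the Ctsd window held 2 copies, 245 and 99 bases before the start. The Bnip3 window held a single CACGTG without the flanking base, 108 bases before the start. The Gabarapl1 window held none of these letters. A match is a description of the sequence and not a site shown to be bound.

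The 35 genes covered a wide range of levels in both tissues. In vehicle-treated TA, Sqstm1, the gene of the p62 cargo receptor, was the highest at 344 ± 50.3 TPM (SD, n = 4), followed by the cathepsin gene Ctsd at 299 ± 80.2, the lysosomal membrane gene Lamp1 at 231 ± 19.2 and the cathepsin gene Ctsb at 165 ± 48.3. In vehicle-treated heart Ctsd led at 298 ± 33.6 TPM, ahead of Sqstm1 at 241 ± 23.4, Lamp1 at 157 ± 10.5 and the ATG8 gene Gabarap at 130.1 ± 14.2. The first 2 places in TA lay within 1 SD of each other. The lowest gene was Atg14, the subunit that directs the lipid kinase complex to autophagosome formation, at 4.21 TPM in vehicle-treated TA and 4.26 TPM in vehicle-treated heart. In each group between 5 and 6 of the 35 genes averaged over 100 TPM and between 7 and 8 averaged under 10 TPM, among them Atg5, Atg7 and Atg12 of the conjugation systems. Summed over the 35 genes, the level ranged from 1657 to 2324 TPM in vehicle-treated TA, from 1980 to 2404 TPM in D + Q–treated TA, from 1691 to 1979 TPM in vehicle-treated heart and from 1805 to 2057 TPM in D + Q–treated heart. The median coefficient of variation of a gene between mice was 18.5% in vehicle-treated TA and 11.5% in D + Q–treated TA, against 10.7% and 7.64% in the corresponding heart groups.

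The first question was whether D + Q changed these genes in the heart. None of the 35 genes passed the test in the heart (limma on log2(TPM + 0.5) with labelled sex, called at an adjusted p below 0.05 with a log2 fold change beyond 0.5 either way), against 0.105% of the 16132 genes tested that were called higher and 0.211% called lower. The smallest adjusted p-value among the 35 was 0.0934, for Atg13. At an unadjusted p-value under 0.05, 8 of the 35 had a higher mean with D + Q (Atg13, Bnip3, Map1lc3a, Ctsd, Atg9a, Optn, Map1lc3b and Nbr1) and 1 a lower mean (Bnip3l), where 9.65% of all genes tested were on the higher side and 7.99% on the lower side. The median log2 fold change was 0.037 over the 35 genes and -0.0025 over all genes tested, and it was positive for 22 of the 35 and for 49.5% of all genes. The 95% confidence interval of the log2 fold change lay within 0.5 of no change for 31 of the 35 genes.

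Atg13 (chr2:91502602-91541186 in GRCm39) encodes the subunit that links the ULK kinases to the rest of their complex. It measured 30.0, 32.4 and 29.1 TPM in the 3 D + Q hearts and 21.4, 25.3, 24.3 and 19.2 TPM in the 4 vehicle hearts. Every D + Q heart was above every vehicle heart, and the log2 fold change was 0.40 (SE 0.074, adjusted p = 0.0934 by limma). The other 3 genes of the complex gave no such difference. Ulk1 and Ulk2, the kinases themselves, had log2 fold changes of -0.094 and 0.037, and Atg101, which stabilises ATG13, averaged 5.67 TPM with D + Q and 6.30 TPM with vehicle, every D + Q heart below every vehicle heart (log2 fold change -0.15, adjusted p = 0.357 by limma).

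Among the 6 genes of nucleation, Atg9a (chr1:75157503-75169327), which encodes the membrane protein that supplies lipid to the growing vesicle, measured 23.9, 26.5 and 22.6 TPM with D + Q and 18.3, 21.6, 22.8 and 19.1 TPM with vehicle. The groups overlapped by 1 mouse on each side, and the log2 fold change was 0.21 (SE 0.067, adjusted p = 0.176 by limma). Becn1, Pik3c3 and Atg14, the core of the lipid kinase complex, had log2 fold changes between -0.060 and 0.0025. The 7 conjugation genes had log2 fold changes between -0.29 for Atg7, the E1-like enzyme of both systems, and 0.11 for Atg5, and none of the 7 reached an unadjusted p-value under 0.05.

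The 2 LC3 genes, whose products coat the autophagosome, both averaged higher in D + Q hearts. Map1lc3a (chr2:155118217-155119998) measured 153, 160.1 and 141 TPM with D + Q and 113, 114, 130.4 and 131 TPM with vehicle. The groups did not overlap, and the log2 fold change was 0.30 (SE 0.079, adjusted p = 0.131 by limma). Map1lc3b (chr8:122317100-122325499) measured 69.8, 77.0 and 68.4 TPM with D + Q and 57.4, 70.9, 59.3 and 60.9 TPM with vehicle. Vehicle replicate 2 lay among the D + Q hearts, and the log2 fold change was 0.19 (SE 0.078, adjusted p = 0.269 by limma). For the 3 genes of the GABARAP branch of the family the log2 fold changes were 0.13 (Gabarap), -0.091 (Gabarapl1) and -0.0093 (Gabarapl2).

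The 2 related mitophagy receptors BNIP3 and NIX, which sit on the outer mitochondrial membrane and bind LC3, had opposite directions in the heart. Bnip3 (chr7:138490690-138511253) measured 75.6, 90.9 and 86.3 TPM with D + Q and 66.3, 69.0, 66.3 and 60.4 TPM with vehicle. The groups were again separate, with D + Q higher, and the log2 fold change was 0.35 (SE 0.082, adjusted p = 0.112 by limma). Bnip3l (chr14:67222678-67246356), which encodes NIX, measured 37.8, 46.9 and 40.3 TPM with D + Q and 59.9, 82.7, 47.0 and 54.8 TPM with vehicle. Here the D + Q group was the lower, without overlap, although the nearest pair differed by only 46.9 against 47.0 TPM, and the log2 fold change was -0.54 (SE 0.18, adjusted p = 0.199 by limma). NIX is best known for clearing mitochondria from maturing red cells, and red cell markers moved with it: 6 red cell genes summed to 26.8 to 122 TPM with D + Q and 347 to 1233 TPM with vehicle. Of these, Hba-a1 and Hbb-bt were listed at 0 in D + Q heart replicate 1, and vehicle replicate 2 was the highest in both Bnip3l and this sum. Their part in the Bnip3l values was not tested. Fundc1, a further mitophagy receptor, had a log2 fold change of 0.025.

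Of the ubiquitin-binding cargo receptors, Optn (chr2:5022703-5068945), the gene of optineurin, measured 49.6, 51.4 and 55.9 TPM with D + Q and 45.2, 44.1, 46.2 and 38.0 TPM with vehicle. The groups did not overlap, and the log2 fold change was 0.27 (SE 0.087, adjusted p = 0.183 by limma). Nbr1, a receptor related in function to p62, averaged 39.7 and 35.6 TPM, also without overlap (log2 fold change 0.14), whereas Sqstm1 averaged 226 TPM with D + Q and 241 TPM with vehicle. Tfeb and Tfe3 had log2 fold changes of 0.12 and 0.17, with overlapping groups. Among the 5 lysosomal genes only Ctsd (chr7:141929646-141941775), an aspartic protease, reached an unadjusted p-value under 0.05, with 345, 363 and 322 TPM in D + Q hearts and 273, 327, 326 and 265 TPM in vehicle hearts. The lowest D + Q heart lay below 2 vehicle hearts, and the log2 fold change was 0.17 (SE 0.054, adjusted p = 0.17 by limma). The cysteine protease genes Ctsb and Ctsl had log2 fold changes of -0.11 and 0.025, and Lamp1 and Lamp2 of 0.056 and 0.031.

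**Figure D1:**
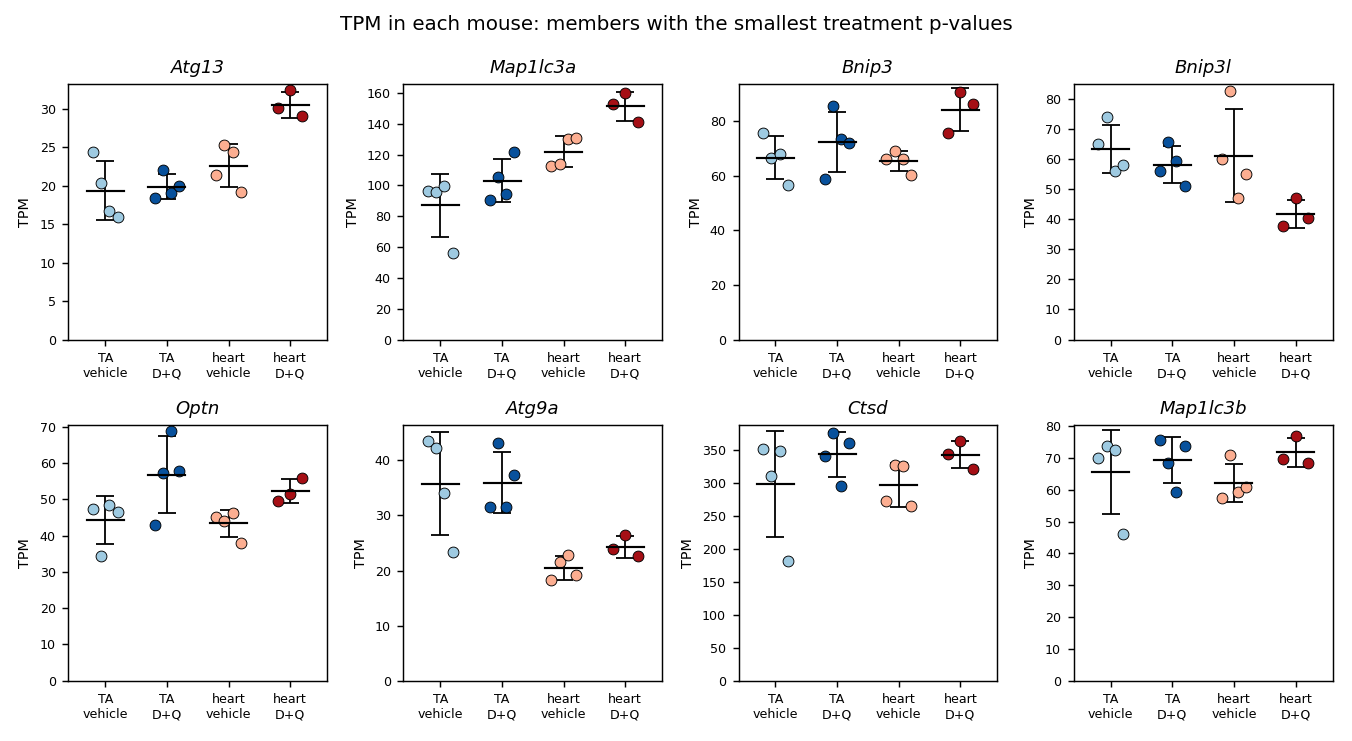
TPM of the 8 genes with the smallest treatment p-values in the heart, 1 point per mouse, for vehicle and D + Q groups of TA and heart. Horizontal lines are means and error bars SD, and in heart the D + Q points of Atg13, Map1lc3a, Bnip3 and Optn lie above all vehicle points while those of Bnip3l lie below them.

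In all, 5 of the 35 genes were above every vehicle heart in every D + Q heart and 2 were below, where 9.63% and 5.57% of all genes tested did the same. Without D + Q heart replicate 3, whose label and expression disagree on sex, the genes at an unadjusted p-value under 0.05 were 3 higher and 0 lower, and with sex read from expression they were 3 higher and 2 lower. With sex read from expression the log2 fold change of Ctsd was 0.072 (adjusted p = 0.697 by limma) and that of Atg9a 0.13 (adjusted p = 0.595 by limma). Without replicate 3 that of Optn was 0.16 (adjusted p = 0.576 by limma). Bnip3 had 0.31 and 0.29, Map1lc3a 0.31 and 0.36, Atg13 0.29 and 0.33 and Bnip3l -0.58 and -0.56 under the 2 settings, none of them called. By expression all 3 D + Q hearts read as female. The fold changes with sex read from expression therefore compare them with only the 2 vehicle hearts that read as female. Other marker lists moved with treatment in the same hearts. The 8 cardiomyocyte markers summed to 32590 to 34346 TPM with D + Q and 25843 to 28621 TPM with vehicle (two-sided exact permutation p = 0.0286 over the 7 mice, the smallest this design allows). The 5 atrial markers, none at 0 in either heart group, summed to 382 to 427 TPM and 864 to 4261 TPM (exact permutation p = 0.0571), and 3 of the 5 were called lower. Most of the D + Q sum was Nppa, which averaged 404 TPM with D + Q and 1371 TPM with vehicle. Myl7 averaged 4.00 and 412 TPM, Myl4 3.54 and 287 TPM, Sln 0.211 and 32.6 TPM and Bmp10 0.143 and 9.62 TPM. All but Bmp10 separated the groups. With the mean atrial marker level in place of sex as covariate, the median log2 fold change of the 35 genes was 0.27, that of Ctsd 0.74 (SE 0.28), of Atg9a 0.85 (SE 0.29) and of Atg13 0.81 (SE 0.36), and the smallest adjusted p-value among the 35 was 0.836 by limma. The standard errors were several times those of the fit with sex. The mean atrial marker level ran from 2.08 to 2.47 in D + Q hearts and from 5.27 to 7.46 in vehicle hearts, without overlap. Atrial level and treatment therefore cannot be told apart here, and no conclusion is drawn from these values. The 10 circadian genes that peak opposite to Bmal1 summed to 128 to 155 TPM with D + Q and 272 to 355 TPM with vehicle (exact permutation p = 0.0286), and 7 of the 10 were called lower. The 10 macrophage markers summed to 131 to 216 TPM and 162 to 269 TPM (exact permutation p = 0.457). The part of the cardiomyocyte, atrial, circadian and macrophage markers in the heart values was not tested.

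In the TA the question was the same, and 0 of the 35 genes were called, as were 0% of the 16298 genes tested (limma with 1 surrogate variable). The study, which tested read counts with DESeq2 at the same thresholds, reported genes changed in both directions in TA. The absence of calls in TPM therefore does not show that D + Q changed no gene. At an unadjusted p-value under 0.05, 1 of the 35 had a higher mean with D + Q and none a lower mean, against 0.638% and 2.36% of all genes tested. No gene of the 35 separated the groups, where 0.264% of all genes tested lay above and 1.25% below without overlap, and the log2 fold changes ran from -0.21 for Atg10 to 0.41 for Optn. The median was -0.034 over the 35 genes and -0.072 over all genes tested. The direction of a small difference depended on the scale, since 15 of the 35 log2 fold changes were positive in TPM, against 33.6% of all genes, and 23 of the 35 after rescaling by median-of-ratios factors. The 95% confidence interval lay within 0.5 of no change for 25 of the 35 genes and within 1 for all 35, its outermost bounds being -0.64 for Atg10 and 0.77 for Optn.

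Optn measured 43.0, 57.4, 68.8 and 57.8 TPM in the 4 D + Q–treated TA muscles and 47.4, 34.3, 48.5 and 46.6 TPM in the 4 vehicle-treated ones. D + Q replicate 1 lay below 3 of the 4 vehicle mice, so the groups overlapped. The log2 fold change was 0.41 (SE 0.16, adjusted p = 0.999 by limma). The lowest value belonged to a female vehicle mouse, and all D + Q–treated TA mice were male. With labelled sex in place of the surrogate variable the log2 fold change was 0.22 (SE 0.20). Males alone give the same value by design, because no D + Q–treated TA mouse was female. Map1lc3a averaged 103 TPM with D + Q and 87.1 TPM with vehicle (log2 fold change 0.23), Atg7 8.86 and 7.11 TPM (0.25) and Sqstm1 399 and 344 TPM (0.21), all with overlapping groups. Bnip3 and Bnip3l had log2 fold changes of 0.15 and -0.087, and Atg13 of 0.073. The macrophage markers summed to 441 to 870 TPM with D + Q and 349 to 745 TPM with vehicle (two-sided exact permutation p = 0.429 over the 8 mice). The surrogate variable was highest, at 0.703, in D + Q replicate 1, whose mean log2 level of these markers was also the highest. It was lowest in D + Q replicate 3 (-0.419) and vehicle replicate 4 (-0.341), where that level was lowest. The TA fold changes are adjusted for this variable, while the means and sums are not.

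**Figure D2:**
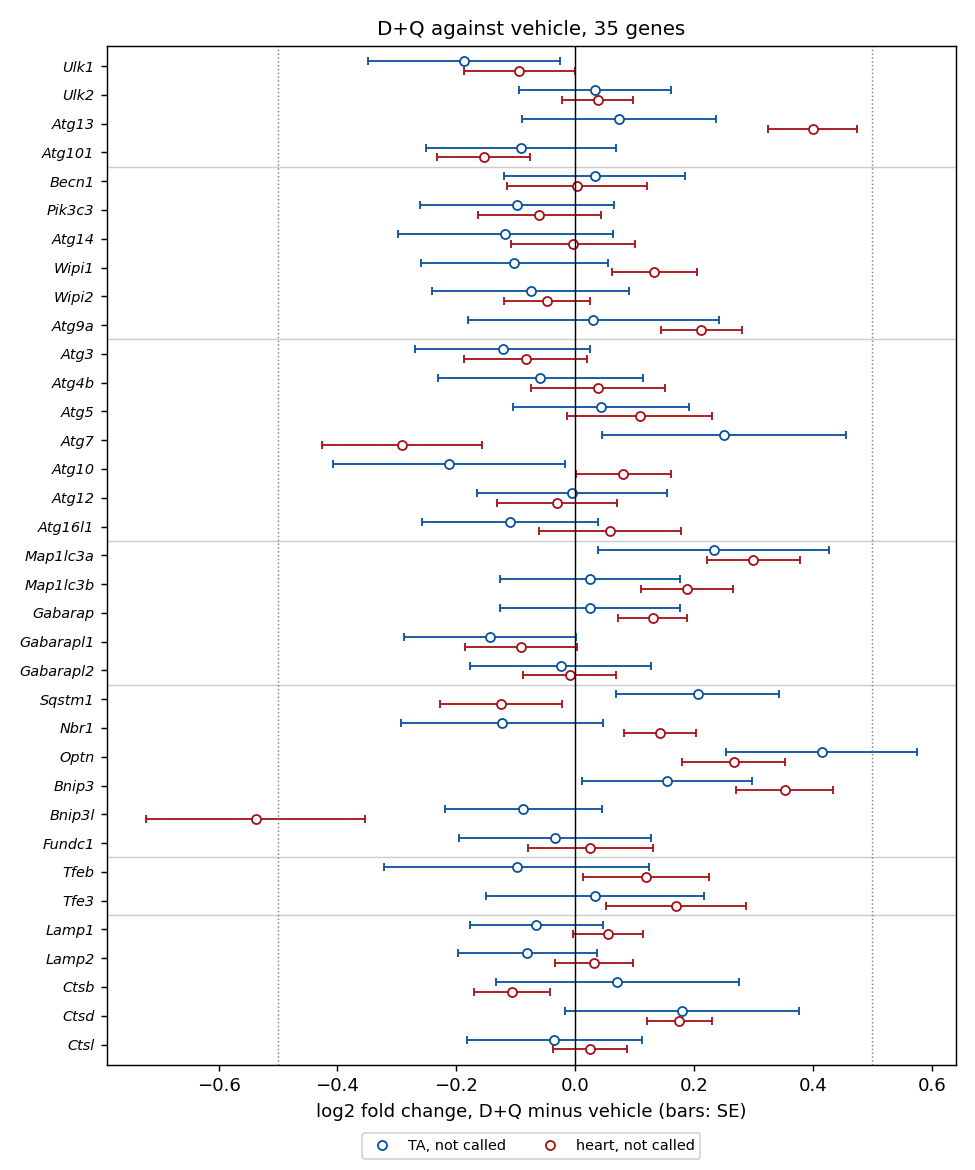
Log2 fold changes of the 35 genes, D + Q minus vehicle, in TA (blue) and heart (red), with SE bars and grouped by role from the ULK complex at the top to the lysosomal genes at the bottom. All symbols are open because none of the 35 was called in either tissue, and the dotted lines mark 0.5 in each direction.

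Whether the treatment difference itself differed between tissues was tested as an interaction over all 15 mice. None of the 35 genes was called, against 0.0616% of the 17868 genes tested, and 1 reached an unadjusted p-value under 0.05, against 4.22% of all genes tested. That gene was Atg7 (chr6:114620044-114837576). In TA it measured 8.93, 9.84, 6.49 and 10.2 TPM with D + Q and 6.87, 9.33, 7.09 and 5.15 TPM with vehicle, and in heart 5.08, 5.48 and 4.68 TPM with D + Q and 6.62, 6.83, 6.91 and 4.49 TPM with vehicle. The groups overlapped in both tissues. The difference of the log2 fold changes, heart minus TA, was -0.66 (SE 0.29, adjusted p = 1 by limma). Over the 35 genes the 95% confidence intervals of this difference reached from -1.28 for Atg7 to 0.87 for Tfeb, and for 33 of the 35 they lay within 1 of no difference.

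The clearest differences in these genes lay between the tissues. In vehicle-treated mice 9 of the 35 genes were called higher in TA than in heart (Ulk2, Atg101, Atg9a, Atg3, Sqstm1, Tfeb, Lamp1, Ctsb and Ctsl) and 3 lower (Gabarapl1, Map1lc3a and Atg10), against 22.5% of the 17868 genes tested called higher and 14.2% called lower. The tissues did not overlap for 9 genes higher and 3 lower in TA, against 25.9% and 15% of all genes tested. Ctsb was called with overlapping groups, and Fundc1 was separate without being called. The median log2 fold change was 0.18 over the 35 genes and 0.16 over all genes tested. Median-of-ratios rescaling moved the median of all genes to -0.0036, and on that scale 4 of the 9 were still called higher (Ulk2, Atg101, Atg9a and Tfeb) and all 3 were still called lower. Over all 17869 genes tested on that scale, 2912 were called higher and 3333 lower. None of the 12 changed direction with the scale, although 9 of the 23 genes that were not called did.

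Tfeb (chr17:48047837-48103348), the transcription factor of lysosomal genes, showed the widest difference in favour of TA. It measured 32.4, 32.6, 24.6 and 15.9 TPM in vehicle-treated TA and 10.2, 14.9, 11.7 and 10.5 TPM in vehicle-treated heart. All TA mice were above all hearts, with replicate 4 of TA close to the highest heart. The log2 fold change was 1.08 (SE 0.20, adjusted p = 0.000533 by limma), or 0.92 above the median of all genes. Tfe3 averaged 8.03 and 6.83 TPM and was not called.

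Within the ULK complex, Atg101 (chr15:101181252-101188834) measured 13.1, 15.2, 11.6 and 10.7 TPM in TA and 6.13, 6.53, 6.63 and 5.92 TPM in heart, with no overlap. The log2 fold change was 0.94 (SE 0.12, adjusted p = 1.32e-05 by limma). Ulk2 (chr11:61665841-61746170) measured 43.9, 49.6, 37.6 and 38.0 TPM in TA and 23.7, 24.5, 22.8 and 22.5 TPM in heart, again with no overlap. Its log2 fold change was 0.83 (SE 0.096, adjusted p = 7.2e-06 by limma). The related kinase gene Ulk1 averaged 32.6 and 29.6 TPM and was not called, so Ulk2 was the more abundant of the pair in TA and the less abundant in heart.

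Of the 5 genes of the ATG8 family, 2 were called lower in TA and none higher. Gabarapl1 (chr6:129509725-129520544) measured 31.8, 35.1, 29.6 and 28.1 TPM in vehicle-treated TA and 65.6, 70.5, 60.9 and 57.9 TPM in vehicle-treated heart. No TA mouse came near a heart, and the log2 fold change was -1.02 (SE 0.14, adjusted p = 3.4e-05 by limma). Map1lc3a measured 96.6, 95.8, 99.7 and 56.3 TPM in TA and 113, 114, 130.4 and 131 TPM in heart. The log2 fold change was -0.52 (SE 0.16, adjusted p = 0.0163 by limma), and TA replicate 4 stood far below the other 3. Map1lc3b, Gabarap and Gabarapl2 were not called, with log2 fold changes of 0.056, -0.12 and 0.33. The third gene lower in TA was Atg10 (chr13:91082795-91398070), the E2-like enzyme that joins ATG12 to ATG5, with 7.51, 8.75, 7.0 and 5.25 TPM in TA and 9.74, 10.2, 11.2 and 9.92 TPM in heart. Its groups did not overlap, and the log2 fold change was -0.52 (SE 0.14, adjusted p = 0.00952 by limma). Without TA vehicle replicate 4, and also without heart vehicle replicate 3, only 1 of the 3 genes was called lower.

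**Figure D3:**
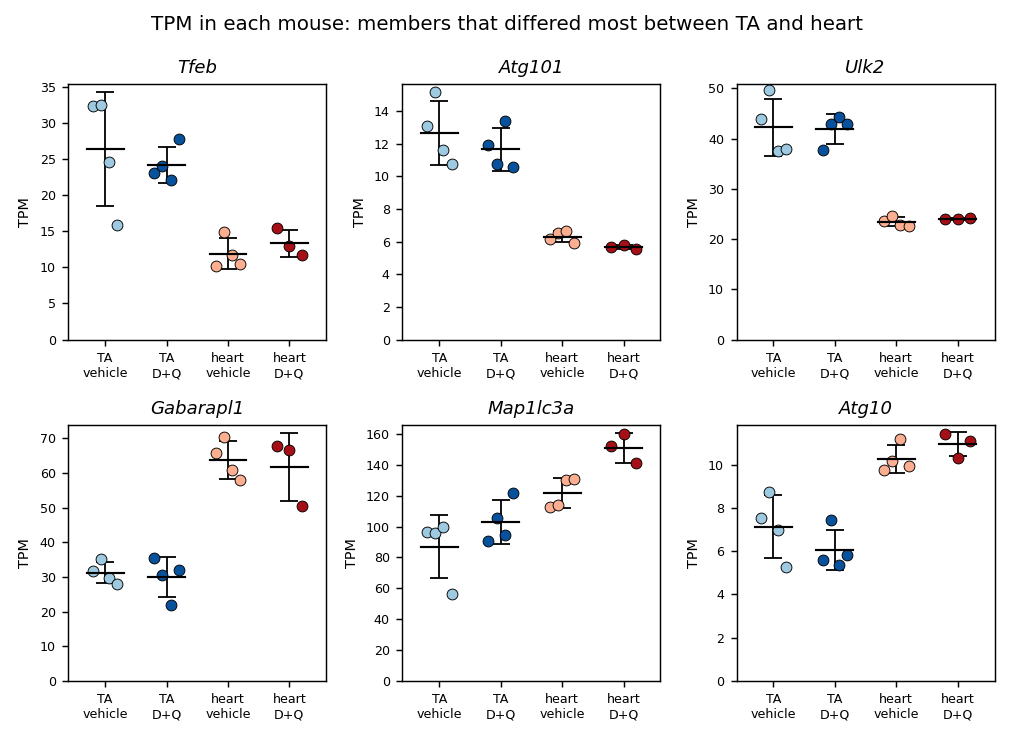
TPM of the 3 genes most raised in TA (Tfeb, Atg101 and Ulk2) and the 3 most raised in heart (Gabarapl1, Map1lc3a and Atg10) in vehicle-treated mice, 1 point per mouse, with the D + Q groups alongside. Lines are means and error bars SD, and for each of the 6 genes the vehicle groups of the 2 tissues do not overlap.

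The other genes called higher in TA came from several steps. Atg9a averaged 35.8 TPM in vehicle-treated TA and 20.5 TPM in heart (log2 fold change 0.76), and Atg3, the E2-like enzyme that attaches ATG8 proteins to lipid, averaged 12.7 and 8.60 TPM (0.53). Sqstm1 averaged 344 and 241 TPM (0.51). Of the lysosomal genes, Lamp1 averaged 231 and 157 TPM (0.55), Ctsb 165 and 101 TPM (0.65) and Ctsl 82.6 and 55.0 TPM (0.58), while Ctsd averaged 299 and 298 TPM. The mitophagy and selective receptors Nbr1, Optn, Bnip3 and Bnip3l had log2 fold changes between 0.017 and 0.073, and Fundc1 had 0.45 with an adjusted p-value of 0.00926 by limma, short of the required fold change. Macrophage markers were also higher in TA. Their sum was 349 to 745 TPM in vehicle-treated TA and 162 to 269 TPM in vehicle-treated heart, and 7 of the 10 were called higher in TA and 1 lower. Their part in the tissue differences was not tested.

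In D + Q–treated mice, which are different animals, 9 of the 35 genes were called higher in TA and 4 lower, against 21.4% and 13.3% of all genes tested. The tissues did not overlap for 16 genes higher and 5 lower in TA, against 26.8% and 19.9% of all genes tested. In all, 10 genes were called in both treatments, all in the same direction, which is 83.3% of the 12 called with vehicle and 76.9% of the 13 called with D + Q. The matching share over all genes was not computed, and both contrasts came from the same fit. The count of 10 therefore does not set these genes apart from others that differ between the tissues. Atg9a and Lamp1 were called with vehicle alone, and Atg7, Bnip3l and Atg13 with D + Q alone, but the interaction passed the test for none of them, and Lamp1 had 0.48 with D + Q, just short of the required fold change. Gabarapl1 measured 35.4, 30.7, 21.9 and 32.1 TPM in D + Q–treated TA and 67.9, 66.7 and 50.5 TPM in D + Q–treated heart (log2 fold change -0.94, SE 0.17, adjusted p = 0.000565 by limma). Atg101 measured 11.9, 10.7, 13.4 and 10.6 TPM in TA and 5.70, 5.78 and 5.54 TPM in heart (1.02, SE 0.14, adjusted p = 5.65e-05 by limma). Tfeb measured 23.0, 24.0, 22.1 and 27.8 TPM in TA and 15.4, 13.0 and 11.7 TPM in heart (0.89, SE 0.25, adjusted p = 0.0103 by limma). The groups did not overlap for any of these 3 genes. Without D + Q heart replicate 3, 5 genes were called higher and Tfeb was not among them (adjusted p = 0.105 by limma). After median-of-ratios rescaling 6 genes were called higher and 4 lower, all 10 among the 13. Over all 17869 genes tested on that scale, 2947 were called higher and 3280 lower.

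The rest of the pathway was read from 127 further genes in 7 lists. None of them was called after D + Q in TA or in heart, where 127 and 126 were tested. At an unadjusted p-value under 0.05 the lists held 0 genes in TA and 19 in heart, 13 with a higher and 6 with a lower mean. Over all genes tested these shares were 0.638% higher and 2.36% lower in TA, and 9.65% and 7.99% in heart. Between the tissues of vehicle-treated mice 36 of the 127 were called higher in TA and 8 lower, against 22.5% and 14.2% of all genes tested. The median log2 fold change was 0.27, against 0.16 over all genes. The counts were 7 higher and 0 lower of 17 further core genes, 2 and 0 of 14 receptors, 4 and 3 of 15 regulators, 4 and 0 of 14 fusion genes, 12 and 3 of 32 lysosomal hydrolases, 3 and 2 of 20 lysosomal membrane and sorting genes, and 4 and 0 of 15 subunits of the proton pump. The widest differences in favour of TA were Ctsk, a collagen-degrading cathepsin, with 59.1 TPM in TA and 5.16 TPM in heart (log2 fold change 3.36, SE 0.27), and Stbd1, a glycogen-binding receptor, with 40.6 and 4.94 TPM (2.94, SE 0.20). The widest in favour of heart were Depp1, a FOXO target, with 13.3 and 32.2 TPM (-1.26, SE 0.27), and Smpd1, the acid sphingomyelinase, with 24.4 and 49.2 TPM (-1.02, SE 0.15).

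Since macrophages are rich in lysosomes and dystrophic muscle holds many of them, each of the 35 genes was set against the mean log2(TPM + 0.5) of 10 macrophage markers, within each tissue, in 70 correlations. In TA 29 of the 35 correlations were positive, and 2 passed an adjusted p-value of 0.05 by Pearson's r. Ctsb had r = 0.931 over 8 mice (exact permutation p = 0.00057, adjusted p = 0.0382) and rho = 0.833 (exact permutation p = 0.0154, adjusted p = 0.417). Map1lc3b had r = 0.917 (exact permutation p = 0.00109, adjusted p = 0.0382) and rho = 0.881 (exact permutation p = 0.00724, adjusted p = 0.417). Without the 2 mice farthest from the median score, vehicle replicate 4 and D + Q replicate 3, r was 0.711 for Ctsb and 0.716 for Map1lc3b. These 2 mice had the lowest scores, so the strength of both relations rests in large part on them. The count of 29 positive correlations rests on them too, since without them r was negative for most of the 29 genes. For Wipi1 it went from 0.384 to -0.906 and for Atg9a from 0.531 to -0.892. Of the 29, only Atg7, Map1lc3a, Map1lc3b, Gabarap, Gabarapl1, Gabarapl2, Tfe3, Lamp2, Ctsb, Ctsd and Ctsl stayed positive. With group means removed and all 8 mice kept, r was 0.926 for Ctsb and 0.914 for Map1lc3b. In heart 28 of the 35 correlations were positive and none passed the adjustment. The closest was Ctsb with r = 0.86 over 7 mice (exact permutation p = 0.00833, adjusted p = 0.0935), rho = 0.857 (adjusted p = 0.417) and r = 0.843 without the 2 farthest mice, while Map1lc3b had r = 0.278 (exact permutation p = 0.54, adjusted p = 0.786) and rho = 0.536 (adjusted p = 0.52). With group means removed, the heart values were r = 0.861 for Ctsb and 0.793 for Map1lc3b. Without the 2 farthest hearts, and with group means kept, r was -0.573 for Map1lc3b, so its direction in heart was not stable.

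**Figure D4:**
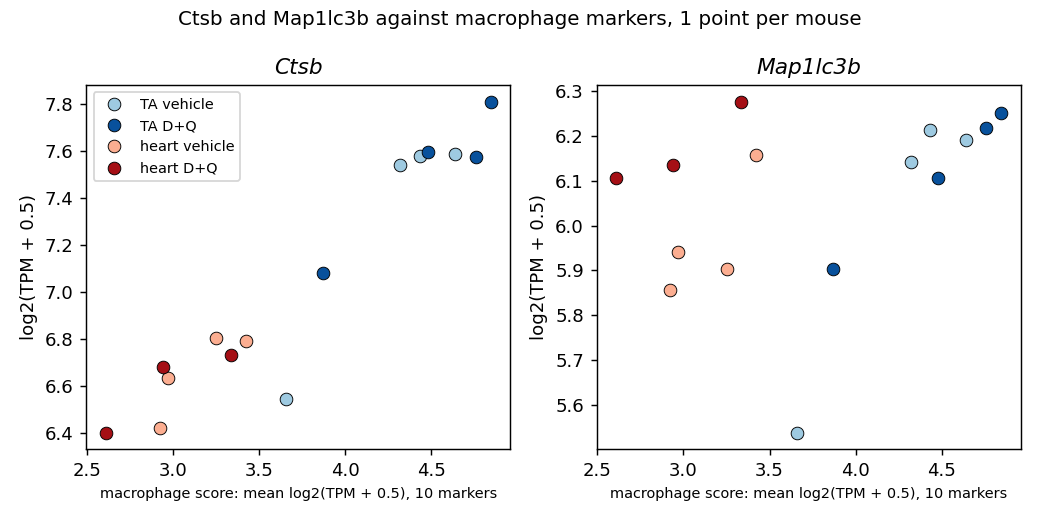
Log2(TPM + 0.5) of Ctsb (left) and Map1lc3b (right) against the macrophage score, the mean log2(TPM + 0.5) of 10 markers, 1 point per mouse and coloured by group. In TA (blue) both genes are lowest in the 2 mice with the lowest scores, and in heart (red) r was 0.86 for Ctsb and 0.278 for Map1lc3b, neither past the adjustment.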

How the data were processed

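RNA from snap-frozen TA and heart was made into mRNA libraries by the study, 1 per mouse. The authors trimmed the reads (Trim Galore 0.6.10), quantified them with Salmon 1.10.3 against GRCm39, summarised them per gene and deposited TPM, which keeps no depth. Of the 56980 identifiers, 56236 were found in GENCODE M39, and Arntl was looked up as Bmal1. Samples were grouped by their labels. The tests used limma 3.58.1 in R 4.3.3. A gene entered a comparison when 3 or more of its mice reached 0.5 TPM. Values were fitted as log2(TPM + 0.5) with a variance trend, Benjamini-Hochberg adjustment ran over every gene tested, and a call required an adjusted p below 0.05 with a log2 fold change beyond 0.5 either way. TA was fitted with 1 surrogate variable estimated from these values, heart with labelled sex, and tissue and interaction contrasts over all 4 groups with labelled sex. Fold changes are on the log2(TPM + 0.5) scale, which understates those of low genes. On simulated data with 200 genes shifted by a log2 fold change of 1, the tests called 70 of them in TA, 129 in heart, 131 between tissues in vehicle mice and 56 in the interaction. The simulated noise was independent between genes, so these counts need not hold for real libraries, where genes vary together. A shift of 1 was also larger than any treatment difference found among the 35 genes in TA or heart.

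The 35 genes and all lists were chosen with earlier results of these data known. Values in every mouse are given for up to 8 of the 35 genes per tissue with the smallest unadjusted p under 0.05 for treatment and for the 3 of each sign with the largest called difference between tissues in vehicle mice. Further pathway genes are the 2 of each sign with the largest called difference there. The values of Atg7 in every mouse, Tfeb, Atg101 and Gabarapl1 in D + Q mice and Glb1 were added after the values were seen. Marker lists for neutrophils, adipocytes, regenerating fibres, fibroblasts, fasting genes and clock genes of the Bmal1 group are given with the closing observations. Alternatives were other pseudocounts, filters, scaling and covariates, and leaving out each mouse. Replicate numbers are shared between groups, but the mice are different animals.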

Additional observations from a re-analysis of the deposited data

Results flagged for a closer look

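Each of the 35 genes was tested for a single distant value in each of the 3 groups of 4 mice. Of these 105 tests, 6 found one by Dixon's test at the 95% level. Chance gives about 1 in 20 for independent tests, but these tests share the same mice, so the count cannot be judged against that rate. Of the 6, 3 were TA vehicle replicate 4. It had 56.3 TPM of Map1lc3a where the other 3 mice had 95.8 to 99.7, 46.0 TPM of Map1lc3b where the others had 70.1 to 73.7, and 92.8 TPM of Ctsb where the others had 185 to 192. The same mouse had the lowest summed level of the 35 genes among all 15 mice, 1657 TPM, and the lowest macrophage sum in TA, 349 TPM. TA vehicle replicate 2 had 10.4 TPM of Atg12 where the others had 7.18 to 7.65, and 34.3 TPM of Optn where the others had 46.6 to 48.5. Heart vehicle replicate 4 had 4.49 TPM of Atg7 where the others had 6.62 to 6.91.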

How the results depend on the processing

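No gene called among the 35 changed direction with median-of-ratios scaling, but among those not called the sign changed for 8 in TA, 2 in heart, 9 between tissues in vehicle mice and 5 in D + Q mice, and the TA median moved from -0.034 to 0.052. The count of the 35 genes called after D + Q stayed at 0 in TA, in heart and in the interaction under every alternative that could be fitted, with 0 as lowest and highest when each mouse was left out. Between tissues in vehicle mice, 4 genes were called higher with median-of-ratios scaling, as were 2912 of all 17869 genes tested. Leaving out each mouse gave 6 to 11 higher (11 without TA vehicle replicate 4, 6 without heart vehicle replicate 4) and 1 to 3 lower (1 without TA vehicle replicate 4 or heart vehicle replicate 3). In D + Q mice the ranges were 5 to 12 higher (5 without heart D + Q replicate 3) and 3 to 4 lower. With the replicate number as a block, 0 genes were called for treatment in either tissue, 9 higher and 3 lower between tissues in vehicle mice, 8 and 4 in D + Q mice, and 0 in the interaction. Mice that share a number did not deviate together (correlations of -0.279 to 0.032 in TA and -0.0351 to 0.0212 in heart). In heart the count of 0 calls says nothing about stability, since the counts at an unadjusted p-value under 0.05 ranged from 3 to 8 higher and 0 to 2 lower. Over all genes tested in heart, 17 higher and 34 lower calls became 0 and 0 without the filter on low values, with the atrial score in place of sex or without heart vehicle replicate 2, 3 and 22 with sex read from expression, 2 and 11 without the trend, and 64 and 72 without heart vehicle replicate 3. The cause was not tested. Depth cannot be judged from TPM.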

Other observations

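The lysosomal β-galactosidase gene Glb1, whose enzyme gives the senescence-associated staining used in senolytic studies, was low in both tissues. It averaged 2.20 ± 0.55 TPM (SD, n = 4) in vehicle-treated TA, 2.14 ± 0.29 (n = 4) in D + Q–treated TA, 4.00 ± 0.32 (n = 4) in vehicle-treated heart and 3.6 ± 0.51 (n = 3) in D + Q–treated heart. The vehicle groups of the 2 tissues did not overlap, and the log2 fold change, TA minus heart, was -0.76 (SE 0.16, adjusted p = 0.00153 by limma). D + Q against vehicle gave -0.039 in TA and -0.14 in heart, with overlapping groups.

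In heart, D + Q against vehicle, 5 clock genes of the Bmal1 group summed to 38.3 to 46.4 and 19.0 to 26.6 TPM (exact permutation p = 0.0286), 6 fibroblast markers to 444 to 522 and 555 to 795 TPM (exact permutation p = 0.0857) and 7 fasting genes to 354 to 716 and 240 to 372 TPM (exact permutation p = 0.114). Neutrophil, adipocyte and regenerating fibre sums gave exact permutation p-values of 0.886, 0.771 and 0.771 in heart and 0.6, 0.171 and 0.629 in TA. In TA the Bmal1 group, fibroblast and fasting sums gave 0.2, 0.2 and 0.0857.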
